A study of Mus musculus with 12 samples.

Results

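The regions described here are short stretches of mouse chromatin that carried both H3K79me1 and H3K79me2 in control cells, where H3K79me1 was no longer called and H3K79me2 was still called after Cre. They were selected on the measured peak positions of all 8 lists, on the 19 autosomes in the mm9 build. A stretch had to be covered in both H3K79me1 control lists and both H3K79me2 control lists over at least 100 bp, which left 13000 control stretches. It was counted as a member when no base of it lay in a peak of either H3K79me1 Cre list and at least 1 base lay in a peak of each H3K79me2 Cre list. There were 1108 members, 8.52% of the 13000, and together they spanned 201.4 kb. All 8 lists entered this choice, so the calls of both marks at the members describe how they were picked and were not tested.

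The cells were mouse embryonic fibroblasts of the genotype AF10 fl/fl, OSKM, rtTA, in which doxycycline switches on the reprogramming factors OCT4, SOX2, KLF4 and MYC. AF10, also called Mllt10, is a partner of the histone methyltransferase DOT1L. Control cells received an empty adenovirus, and the other group an adenovirus with Cre recombinase under the CMV promoter, after which the genotype is labelled AF10 -/-, OSKM, rtTA. Every culture, control or Cre, was then given doxycycline at 2 µg/mL from 2 days after the virus, grew on a layer of DR4 feeder fibroblasts and was taken on day 4 of reprogramming. The feeders may add chromatin to each library, and the peak lists hold no measure of how completely AF10 was deleted. Each mark had 2 control and 2 Cre libraries. No label states that replicates 1 and 2 came from separate cultures.

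DOT1L is the enzyme that methylates lysine 79 of histone H3, and it adds methyl groups step by step, so that a nucleosome can carry 1, 2 or 3 of them. AF10 binds DOT1L and is known for promoting the higher methylation states. In mammalian cells H3K79me1 and H3K79me2 lie over transcribed genes, with H3K79me2 more concentrated towards the start of the gene. The members are stretches where the call of the lower state was lost and that of the higher state was kept. They could not be tied to genes, and no sequence is printed, because no mm9 genome or annotation was used here.

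The lists differed greatly in length, and 1 of them stood apart. Autosomal H3K79me1 peaks covered 117.8 Mb in control replicate 1, 53.4 Mb in control replicate 2, 59.5 Mb in Cre replicate 1 and 1.85 Mb, from 12047 peaks, in Cre replicate 2. For H3K79me2 the range was 15.8 to 69.9 Mb in the controls, with 47.5 and 49.2 Mb in the Cre lists. In the peak names both H3K79me1 lists of replicate 2 carry the tag 19 and both of replicate 1 the tag A, and the meaning of the tags is not given. H3K79me1 cover was lower with Cre within each tag. The 4 H3K79me2 lists carry A for replicate 1 and B for replicate 2. The peak names also carry p1e3 in all 4 H3K79me1 lists and p1e4 in all 4 H3K79me2 lists. The 2 marks may thus have been called at different settings. Read depth is unknown.

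That short list decided few of the members. Of the 10775 control stretches with H3K79me2 in both Cre lists, 79.5% had no base in H3K79me1 Cre replicate 2, against 12.4% with no base in Cre replicate 1. Membership was thus set largely by Cre replicate 1. The calls of the 2 Cre lists also went together only weakly. Stretches without a base in Cre replicate 2 had none in Cre replicate 1 in 12.9% of cases, and stretches with a base in Cre replicate 2 had none in Cre replicate 1 in 10.4%. Without H3K79me1 Cre replicate 2 the rule gave 1337 members, and without Cre replicate 1 it gave 8569. Other single lists also moved the count. It was 1963 of 18248 control stretches (10.8%) without H3K79me1 control replicate 1 and 1668 of 20737 (8.04%) without H3K79me1 control replicate 2. Without H3K79me2 control replicate 1 it was 3512 of 53702 (6.54%). The starting sets thus grew as well, and the shares lay on both sides of the 8.52% of the full rule.

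Where H3K79me2 was kept, H3K79me1 was missing more often between the 2 controls than between a control and Cre replicate 1. For this comparison, stretches were taken from a single H3K79me1 control list and both H3K79me2 control lists. Among the 17097 H3K79me2-kept stretches of control replicate 1, 11.3% had no base in Cre replicate 1 and 24.9% had none in control replicate 2. Of the 14573 stretches of control replicate 2, 16.4% had none in Cre replicate 1 and 19.0% had none in control replicate 1. The absence from Cre replicate 1 largely sets the members. In these stretches, picked by H3K79me2 calls in the Cre lists, that absence was not larger than the difference between the 2 control libraries. Cre replicate 2 lacked far more, 83.2% and 78.7%. The 2 controls carry different tags, so no control pair within a tag gives a spread to compare with. Within tag A, Cre lacked 11.3% of the control stretches, and within tag 19 it lacked 78.7%.

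Where H3K79me2 was not kept, the order for Cre replicate 1 was the other way round. Cre replicate 1 then lacked 43.2% and 56.2% of the stretches from control replicates 1 and 2, against 27.1% and 30.5% lacking in the other control. Over all stretches, kept or not, Cre replicate 1 lacked 16.9% and 24.4%, against 25.3% and 21.3% in the other control. For Cre replicate 1 an excess over the difference between controls was thus seen for stretches that had not kept H3K79me2, and not for those that had. For Cre replicate 2 it was seen in both, at 93.1% and 89.6% where H3K79me2 was not kept. The split itself was made on calls in the H3K79me2 Cre lists. It thus selects on Cre cells and not on the controls, and cannot serve as a test. Over all stretches, Cre replicate 1 exceeded the other control only for stretches from control replicate 2, at 24.4% against 21.3%.

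**Figure D1:**
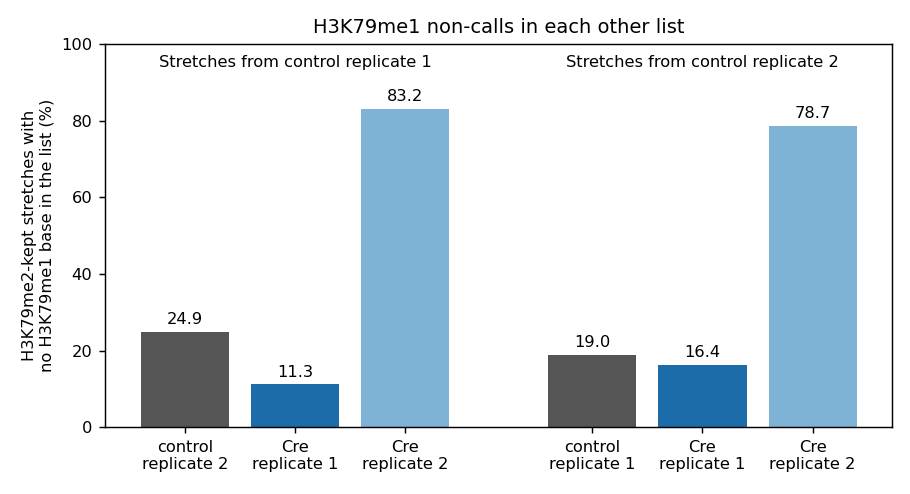
Share of H3K79me2-kept stretches with no H3K79me1 base in each other H3K79me1 list, for stretches taken from control replicate 1 (left, n = 17097) and from control replicate 2 (right, n = 14573). The other control (grey, 24.9% and 19.0%) lacks them more often than Cre replicate 1 (dark blue, 11.3% and 16.4%), and Cre replicate 2 (light blue) lacks 83.2% and 78.7%.

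A reading of the rule in libraries it had not used gave a small excess of loss. When the rule was applied to the replicate 2 lists alone it picked 42187 of 73368 stretches. In the replicate 1 lists 83.2% of these were called for H3K79me1 in the control and 73.6% after Cre. For the 6101 stretches that had kept both marks in replicate 2, the replicate 1 shares were 83.6% in the control and 82.7% after Cre. The drop from control to Cre was thus larger in the stretches picked for loss. The 2 sets also differed in H3K79me2, so they were not alike apart from the loss. In replicate 1, H3K79me2 was called in 49.0% of the 42187 in the control and 76.3% after Cre. For the 6101 these shares were 80.7% and 89.2%. In the other direction, the rule on the replicate 1 lists picked 2834 of 24936 stretches. In replicate 2, 71.6% of these were called in the control and 10.4% after Cre, and for the 18011 stretches that had kept both marks the shares were 73.9% and 15.5%. H3K79me1 was called in the control and not after Cre in 62.7% of the 2834 and 60.3% of the 18011, close to each other. In the first direction these shares were 17.3% of the 42187 and 10.5% of the 6101. The 6101 had to be called in the short list of H3K79me1 Cre replicate 2, so that list set them apart. With 1 control and 1 Cre library left in each reading, no test was possible.

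Loss of H3K79me1 was less frequent where H3K79me2 was kept than where it was not. H3K79me1 had no base in either Cre list in 15.2% of all 13000 control stretches, and an H3K79me2 base remained in each Cre list in 82.9%. Among the 10775 stretches that kept H3K79me2, the H3K79me1-lost share was 10.3% (exact binomial 95% interval 9.72 to 10.9%). Among the 2225 that did not, it was 39.0% (37.0 to 41.1%). These intervals cover counting error only, and neighbouring stretches share peaks. Most of the 13000 stretches, 9667, kept both marks. Of the others, 1108 were members and 868 lost H3K79me1 and did not keep H3K79me2 in each Cre list. A further 1357 kept H3K79me1 and did not keep H3K79me2 in each Cre list. Among stretches that lost H3K79me1, those that kept H3K79me2 were thus the larger part. The difference in the H3K79me1-lost share, kept minus not kept, was -28.7 percentage points and had the same sign on 19 of 19 autosomes.

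The same order appeared at every level of control signal. The authors' fold enrichment of each peak was used as a rank within its list, and control stretches were cut into 5 equal groups by their mean rank in the H3K79me1 control lists. In the weakest group the lost share was 14.2% where H3K79me2 was kept and 50.7% where it was not. In the strongest group the shares were 6.28% and 24.7%. Weak H3K79me1 in the controls thus went with more frequent loss in both classes. Short length went with more frequent loss too, and a longer stretch has more room for a base of a Cre peak. The lost share of H3K79me2-kept stretches was 15.4% at 100 to 149 bp, 5.01% at 300 to 499 bp and 0.840% at 500 bp and over.

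**Figure D2:**
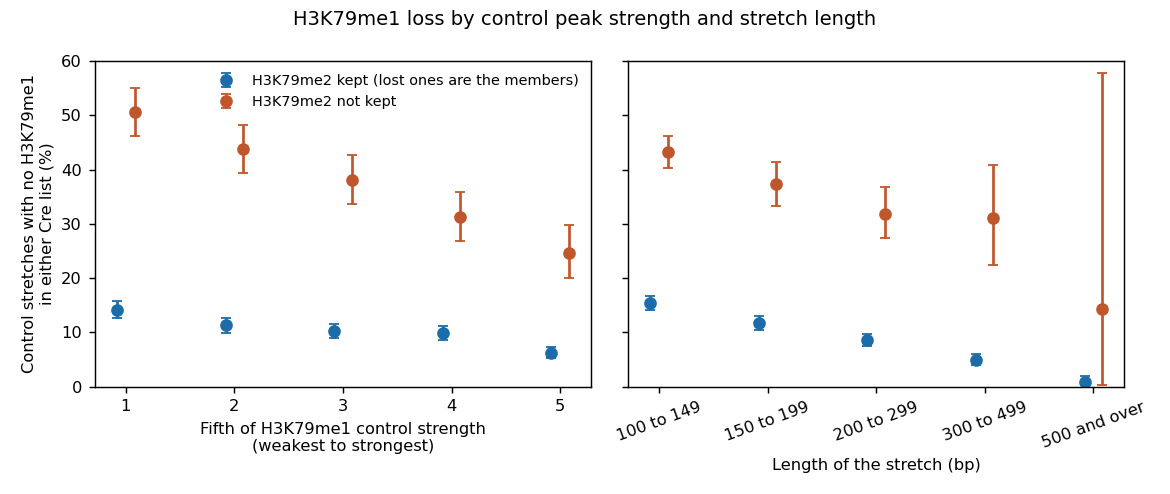
Share of control stretches with no H3K79me1 base in either Cre list, by 5 equal groups of H3K79me1 control strength (left) and by stretch length in bp (right), for stretches with H3K79me2 kept (blue) and not kept (orange), with exact binomial 95% intervals. Blue lies below orange in all 5 groups of each panel, and both go down from the weakest group (14.2% and 50.7%) to the strongest (6.28% and 24.7%).

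Members were short, and the control peaks around them were broader, least so in H3K79me2 control replicate 1. Their median length was 157 bp (quartiles 122 and 217 bp, longest 620 bp), against 201 bp in the 9667 stretches that kept both marks. The H3K79me1 peak around a member had median widths of 1384 and 518 bp in the first and second control list. For stretches that kept both marks these widths were 1628 and 585 bp. The H3K79me2 peak around a member had median widths of 237 and 998 bp in control replicates 1 and 2, against 330 and 1586 bp. In H3K79me2 control replicate 1 a member was thus often much of a narrow peak. The rule's length limit cut through a dense range: 138 members were 100 to 109 bp long, and 135 stretches of 90 to 99 bp met the rest of the rule.

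How often the control peaks that held members were lost whole differed between the controls. Of the 1096 H3K79me1 peaks of control replicate 1 that held a member, 255 (23.3%) had no base in either Cre list. Over all 1096, Cre replicate 1 still covered 45.0% of the bases and Cre replicate 2 covered 1.58%. In control replicate 2, 580 of 1105 such peaks (52.5%) had no base in either Cre list. The narrower peaks of that list were thus more often lost entirely than the wider peaks of control replicate 1. All these peaks were picked for holding a stretch with no H3K79me1 Cre base, so the rule bears on both shares. No share was taken over all control peaks or over peaks that hold other stretches. Whether whole loss was more frequent at members thus cannot be said.

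H3K79me1 was still called after Cre close to nearly every member. The gap from a member to the nearest H3K79me1 peak of either Cre list had a median of 161 bp. A Cre peak lay nearer than 1 kb to 1019 members (92.0%) and nearer than 5 kb to 1100 (99.3%). The nearest peak belonged to Cre replicate 1 for 1039 members. Just inside the rule, 285 members had a Cre peak within 50 bp, and just outside it 406 H3K79me2-kept stretches shared 1 to 50 bases with a Cre peak and no more. When a member was also required to lie more than 500 bp from any such peak, 212 remained. The 868 stretches that lost H3K79me1 and did not keep H3K79me2 lay farther away, with a median gap of 290 bp.

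**Figure D3:**
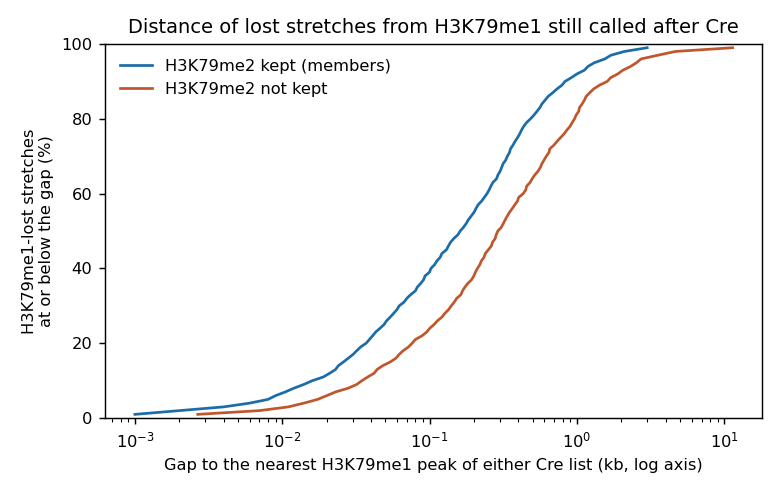
Cumulative share of H3K79me1-lost stretches (y axis, %) by their gap to the nearest H3K79me1 peak of either Cre list (x axis, kb, log scale), for the 1108 members (blue) and the 868 stretches that did not keep H3K79me2 (orange). Members lie closer, with medians of 161 bp and 290 bp, and 92.0% of members have a gap under 1 kb.

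Around the members H3K79me1 cover in Cre replicate 1 was lower than around stretches that kept both marks, while control cover was nearly equal. The rule bears on this, since members have no base in that list and most stretches with both marks do. The Cre replicate 1 peaks at stretches with both marks had a median width of 1146 bp, so they reach into the flanks. The difference is a description and was not tested. In the flanks from 1 to 5 kb outside the stretch, Cre replicate 1 covered 36.8% around members and 47.0% around stretches with both marks, a difference of -10.2 percentage points. Cre replicate 2 covered 1.56% and 2.28%. Control replicate 1 covered 54.4% and 57.0%, and control replicate 2 covered 31.0% and 31.6%. The difference in Cre replicate 1 narrowed with distance, from -16.9 points at 0.2 to 1 kb to -6.62 points at 5 to 10 kb. Cover around members in Cre replicate 1 lay between the 2 controls in all 3 flanks, and within each tag the Cre list lay below its control.

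H3K79me2 cover was also lower around the members, in all 4 libraries. At 1 to 5 kb it was 40.4% and 36.1% in Cre replicates 1 and 2, against 51.4% and 45.9% around stretches that kept both marks. In control replicates 1 and 2 it was 13.2% and 47.1% against 17.8% and 54.9%. The members thus lay in surroundings with less H3K79me2 in control and Cre cells alike. The ratio of members to stretches with both marks was 0.738 and 0.858 in the controls and 0.786 in each Cre library, so the Cre ratios lay within the range of the control ratios.

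**Figure D4:**
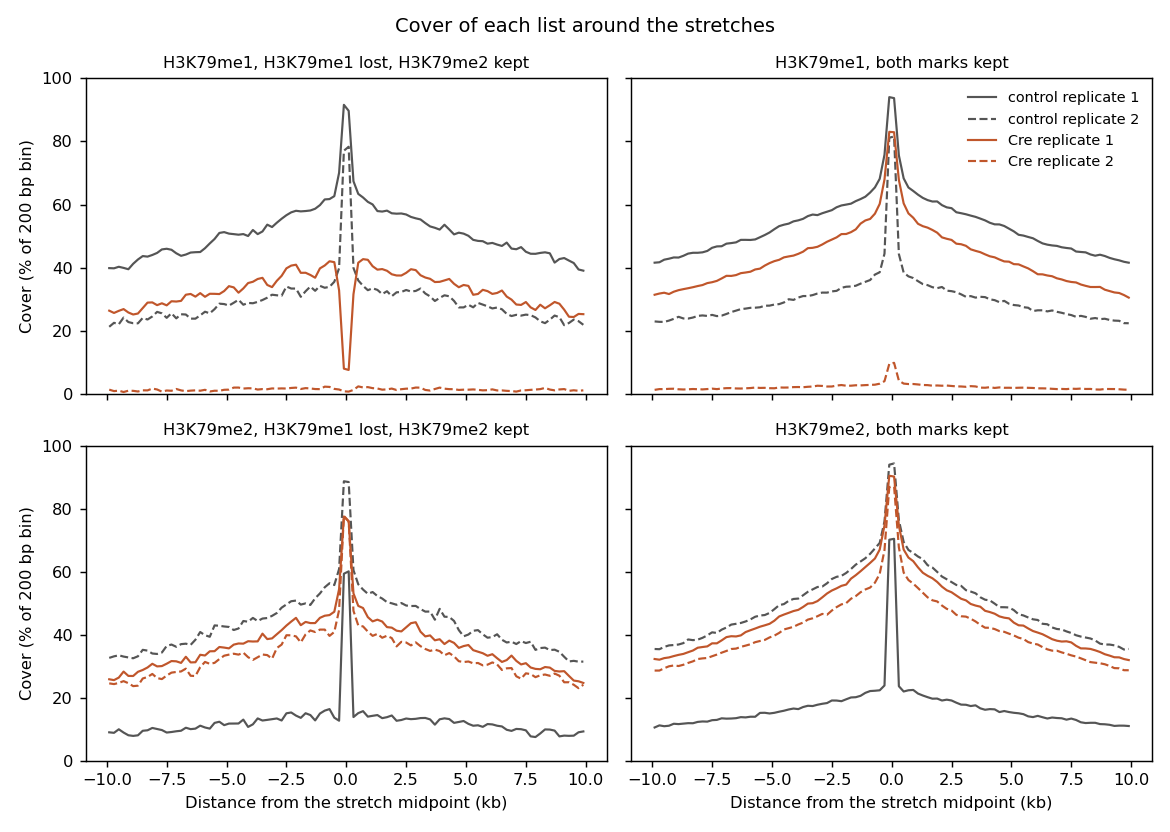
Cover of each list (y axis, % of a 200 bp bin) by distance from the stretch midpoint (x axis, kb), for members (left) and stretches that kept both marks (right), with H3K79me1 above and H3K79me2 below. Grey lines are controls, orange lines Cre, solid replicate 1 and dashed replicate 2. The dip and peaks at 0 follow from the rule, which also bears on the flanks of H3K79me1 Cre replicate 1. Beyond the dip, Cre replicate 1 lies between the 2 H3K79me1 controls on the left, at 36.8% in the flanks from 1 to 5 kb.

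The H3K79me2 that remained at the members covered most of their bases, but it was less complete and weaker in rank than where both marks stayed. Of the members' bases, Cre replicates 1 and 2 covered 83.7% and 86.5% (mean 85.1 ± 2.03%, SD, n = 2). At stretches with both marks kept, they covered 93.5% and 91.6% (92.5 ± 1.35%, SD, n = 2). In both lists 545 members (49.2%) were covered from end to end, while 225 (20.3%) were covered under 50% in at least 1 list. At the low end, 54 members had 20 bases or fewer in the lesser list, so the rule's single base admitted some with almost no H3K79me2.

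Ranks of the H3K79me2 peaks separated members from stretches with both marks more after Cre than in the controls. The median percentile of fold enrichment at members was 49.3 and 85.1 in control replicates 1 and 2, against 51.0 and 88.0 at stretches with both marks. In Cre replicates 1 and 2 it was 69.4 and 74.3, against 86.3 and 83.7. As differences of medians, members against stretches with both marks, the controls gave -1.69 and -2.96 percentile points and the Cre lists -16.9 and -9.36 points. Both Cre differences lay outside the range of the 2 controls, in the direction of weaker H3K79me2 at stretches where H3K79me1 was not called. In the 2 control lists members ranked 11.6 and 15.0 points above the 868 stretches that lost H3K79me1 and did not keep H3K79me2. These ranks come from lists that the rule also used, so they are given with no test.

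H3K79me1 ranks in the controls differed in 1 library and not in the other. The median percentile in control replicate 1 was 75.6 at members and 84.8 at stretches with both marks. In control replicate 2 it was 72.07 and 72.10. The lower H3K79me1 rank of the members was thus seen in control replicate 1 alone. In absolute terms the peaks were weak calls in both lists, at members and at stretches with both marks alike. The median fold enrichment was 2.00 in each list at members, against 2.12 and 2.00 at stretches with both marks. The median −log10 p was 1.50 and 1.64, against 1.65 and 1.63.

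Members stood alone in their H3K79me2 domain somewhat more often than control stretches in general. Domains here are stretches covered in both H3K79me2 controls, joined where they lay within 1 kb. The 1108 members fell in 1071 domains, and in 671 of these the member was the single control stretch (60.6% of members). Standing alone was common among the rest too. Domains of 2 or more control stretches held 437 of the 1108 members, 5282 of the 9667 stretches with both marks and 6283 of all 13000. In 27 of the 400 member domains with at least 2 control stretches (6.75%), every stretch had lost H3K79me1. Of the 437 members in these domains, 90.6% shared theirs with another stretch that kept H3K79me1. That share was 95.2% for the 5282 stretches with both marks in such domains and 94.1% for all 6283 control stretches there, so members were close to the rest in this respect.

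Wider domains held fewer members for their number of stretches. Of the H3K79me2-kept stretches in domains under 1 kb, 14.9% had lost H3K79me1. The share was 8.05% at 2 to 5 kb and 5.03% in domains of 10 kb and over, which held 37 members among 736 such stretches. Among stretches that had not kept H3K79me2 the share also went down, from 41.5% in domains under 1 kb to 28.6% at 2 to 5 kb and 16.4% at 5 to 10 kb. It was 43.5% at 10 kb and over, where there were only 23 of them. Members lay at a median of 55.5 on a scale from 0 at the edge of the domain to 100 at its centre, and stretches with both marks at 48.3. A stretch that fills its domain scores 100 on this scale. Members lay in narrower domains, with a median width of 1141 bp against 2030 bp, so the scale does not separate place from domain width.

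The members were found on all 19 autosomes. Their share of the control stretches ran from 6.42% on chromosome 15 to 10.8% on chromosome 18, around 8.52% over all autosomes. The median gap from a member to the nearest other member was 185 kb. Chained within 10 kb, they formed 980 clusters, of which 871 were single members and 16 held 3 or more. No cluster held more than 4.

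In the 3 clusters of 4 members, Cre replicate 1 still called much H3K79me1 between the members and Cre replicate 2 called little. On chromosome 2 at 20853401 to 20871431 (mm9), H3K79me1 covered 80.2% and 45.0% of the 18 kb span in the control lists. After Cre it covered 46.6% and 1.66%. For H3K79me2 the control values were 20.2% and 64.8%, and the Cre values 62.0% and 56.4%. Cre replicate 1 was thus within the control range for H3K79me1 over the cluster, and 3 of its 7 control stretches had kept that mark. The clusters on chromosome 12 at 3288306 to 3306140 and chromosome 4 at 40778538 to 40797106 had H3K79me1 cover of 42.0% and 55.4% in Cre replicate 1, between 40.3% and 52.8% in the lower control (replicate 2) and 53.9% and 86.1% in the higher one. Cre replicate 2 covered 0.92% and 3.79%. Of the control stretches in these clusters, 1 of 5 and 6 of 10 had kept H3K79me1.

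**Figure D5:**
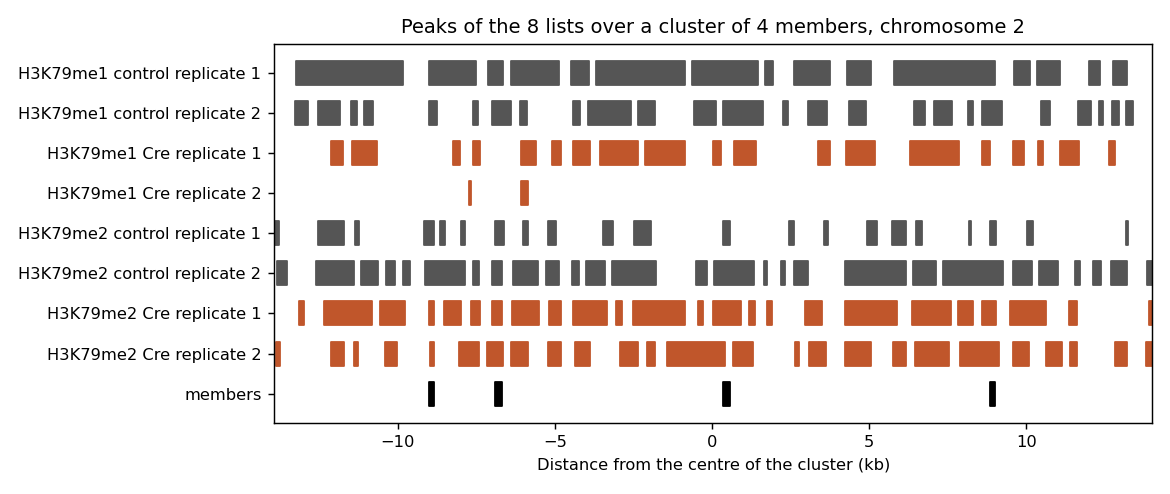
Peaks of the 8 lists (rows) over the cluster of 4 members on chromosome 2, by distance from its centre in kb, with controls in grey, Cre in orange and the members in black. Peaks of H3K79me1 Cre replicate 1 lie between the members and cover 46.6% of the span, against 80.2% and 45.0% in the controls, and Cre replicate 2 covers 1.66%.

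A cluster on chromosome 4 was the exception. Its 3 members lay within 2.01 kb at 87668319 to 87670329, and it held no stretch that kept H3K79me1. H3K79me1 covered 89.0% and 76.1% of it in control replicates 1 and 2, and 0% in both Cre lists. H3K79me2 cover was 58.4% and 89.8% in control cells, against 51.4% and 45.9% with Cre. All 4 H3K79me2 lists thus called it, and both Cre values lay below both controls. The cluster on chromosome 2 at 116967234 to 116982651, with 3 members, had H3K79me1 cover of 33.9% and 33.7% in control cells, against 27.8% and 0.863% after Cre.

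The 5 longest members had H3K79me1 close by after Cre in most cases. The longest, 620 bp on chromosome 11 at 104404579 to 104405198, lay 11 bp from a peak of Cre replicate 1 and was covered to 100% in both H3K79me2 Cre lists. Its H3K79me2 peaks ranked at the 98.2 and 93.2 percentile of Cre replicates 1 and 2. Within 5 kb either side H3K79me1 covered 41.6% and 46.2% in control cells, against 45.3% and 2.16% with Cre. Beyond the member itself, the neighbourhood in Cre replicate 1 thus lay between the controls. The next, of 541 bp, was on chromosome 17 from 35140475 to 35141015 and lay 34 bp from an H3K79me1 Cre peak. A member of 520 bp on chromosome 19, from 7397846 to 7398365, lay 40 bp away, and 1 of 503 bp on chromosome 7, from 48855939 to 48856441, lay 102 bp away. The last of the 5, 493 bp on chromosome 11 at 19989211 to 19989703, stood apart from these, with a gap of 1.13 kb. H3K79me1 covered 48.5% and 32.2% of its surroundings in control cells, against 11.3% and 0% with Cre, but H3K79me2 covered only 32.0% and 25.6% of the member itself in Cre replicates 1 and 2.

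Of the 5 members strongest for H3K79me1 in the controls, 4 had that mark called close by in Cre replicate 1. The first, on chromosome 8 at 35995668 to 35995836, had H3K79me1 peaks of 2.68-fold and 2.43-fold enrichment in control replicates 1 and 2, at the 99.4 and 98.3 percentile of their lists. H3K79me1 covered 55.5% and 30.4% within 5 kb in control cells, against 16.1% and 0% with Cre. Here both Cre lists lay below both controls, and the nearest H3K79me1 Cre peak was 1.04 kb away. The other 4 were chr7:87248655-87248852, chr17:56184081-56184194, chr10:12557034-12557273 and chr4:123295815-123295945 in mm9. There, Cre replicate 1 covered 50.9% to 63.7% of the surroundings. That was between the values of the 2 controls in each, and the gaps to an H3K79me1 Cre peak ran from 1 to 321 bp. Cre replicate 2 covered 2.35% and 2.65% around the members on chromosomes 17 and 4 and 0% around the other two.

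Of the 5 members farthest from any H3K79me1 Cre peak, 4 were narrow, isolated and very strong for H3K79me2. The farthest, 204 bp on chromosome 13 at 111399637 to 111399840, had no H3K79me1 Cre peak within 208.9 kb. Its H3K79me2 peaks were 224 and 448 bp wide in control replicates 1 and 2, with the authors' fold enrichment at 13.9 and 9.29. After Cre they were 336 and 366 bp wide, at 4.20-fold and 9.04-fold. All 4 values ranked near the top of their lists. Within 5 kb either side H3K79me2 covered no more than 5.53% and H3K79me1 no more than 2.55% in any list, so the region was not part of a broad domain. Its H3K79me1 peaks were weak, at 1.63-fold and 2.01-fold in the controls.

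The other 3 had the same form. On chromosome 2 at 181162899 to 181163131 the gap was 43.2 kb and H3K79me2 enrichment was 12.2-fold and 8.36-fold in control cells, against 3.68-fold and 8.50-fold after Cre. On chromosome 9 at 50166315 to 50166442 the gap was 39.5 kb, with 7.90-fold and 6.11-fold in control cells, against 3.10-fold and 4.37-fold after Cre. On chromosome 3 at 66877574 to 66877699 the gap was 19.4 kb, with 13.1-fold and 7.10-fold in control cells, against 2.67-fold and 6.78-fold after Cre. In all 4 regions Cre replicate 1 had the lowest enrichment of the 4 H3K79me2 lists, and Cre replicate 2 lay below both controls or between them. Fold enrichment is relative to the background of its own library. The highest autosomal value of any peak was 17.0 and 13.5 in control lists, against 4.83 and 12.4 in Cre lists. A lower value in Cre replicate 1 thus cannot tell a change in H3K79me2 from none. The remaining member of the 5, on chromosome 7 at 148579558 to 148579820, was an ordinary H3K79me2 peak, at 2.39-fold and 2.13-fold in control cells, against 1.60-fold and 1.52-fold after Cre, with a gap of 16.6 kb.

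Such strong H3K79me2 was rare among the control stretches. A limit of 4-fold enrichment in both H3K79me2 controls was set after these 4 members had been seen, so they pass it by choice. Of the 13000 control stretches 8 passed, of which 4 were members, the 4 just described, and 4 had kept both marks. In 2 of those 4 H3K79me1 was called in Cre replicate 2 and not in Cre replicate 1. Among the other 1104 members, 2 lay 10 kb or more from an H3K79me1 Cre peak. With 8 stretches no order can be drawn.

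Opposite patterns were also counted. H3K79me2 was missing from both Cre lists while H3K79me1 was kept in at least 1 in 234 control stretches (1.80%), fewer than the 1108 members. Under a looser rule, with H3K79me2 missing from at least 1 Cre list, there were 1357 (10.4%). These counts are not on a like footing with the members. H3K79me1 Cre replicate 2 alone lacked 81.3% of the control stretches, whereas the H3K79me2 Cre lists covered 47.5 and 49.2 Mb. The peak names also differ between the marks, with p1e3 for H3K79me1 and p1e4 for H3K79me2. Starting from the Cre lists, 3249 stretches were covered in all 4 of them. No H3K79me1 base in either control and an H3K79me2 base in each was found in 253 (7.79%), near the 8.52% of the members. Without H3K79me1 Cre replicate 2 the 2 directions gave 1337 of 13000 control stretches (10.3%) and 1951 of 45308 Cre stretches (4.31%). As listed, stretches that lost H3K79me1 after Cre and stretches that gained it were thus about equally frequent for their starting sets, and leaving out the short list made the first more frequent.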

How the data were processed

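The data are 8 broad peak lists from ChIP-seq for H3K79me1 and H3K79me2, deposited as 1 list per library. The series' 4 libraries for RNA polymerase II were not used. Per the labels' protocols, fragments ran from 200 to 400 bp, and each precipitation of 7.1 µg received 133 ng of spike-in chromatin from 293T, a human kidney line. The submitters' processing notes list mm9 and hg19 as builds and, among the tools, MACS2, Bowtie2 and SAMtools 1.2, without saying what each did. Per the peak names, each library was called against an input. Every deposited peak has the authors' fold enrichment, which is a ratio over the caller's background, with a −log10 p-value, a −log10 q-value and a score (the integer part of 10 times −log10 q). These deposited fold and −log10 p values served only as ranks within a list or as a description. No spike-in scaling is recorded in them.

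Samples were grouped by title. Stretches were intersected base by base, and positions are printed from base 1. The members, named regions and settings were chosen with earlier results of these data known. Named were the 5 longest members, the 5 farthest from an H3K79me1 Cre peak, the 5 with the highest mean H3K79me1 control rank, and the 5 clusters (within 10 kb) with most members (regions on chromosome 18 were counted but not named). No test was run, since the choice of members used all 8 lists. The interval code was checked on simulated lists. Alternatives were lengths, overlap rules, stricter or equal peak sets, merging and each library left out. Read depth is unknown, so intervals on shares cover counting error of stretches only. Intervals were computed in NumPy 2.4.6 and tables kept in pandas 2.3.3, under Python 3.11.15. Binomial bounds came from SciPy 1.17.1 and plots from Matplotlib 3.10.9.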

Additional observations from a re-analysis of the deposited data

How the results depend on the processing

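No paired analysis was possible because the results come from no test. Of 85 alternatives, 44 moved a share or difference by less than its spread, or a count by less than 1.5 times, and 41 moved it by more. The sign of a difference changed in 0, while counts and shares have no sign to change. For the rank difference in the H3K79me1 controls the spread of 6.49 points was larger than the value itself. All 15 of its alternatives fell within that spread, which says little. The number of members became 2128 of 21344 control stretches at a minimum length of 50 bp and 338 of 5744 at 200 bp. Of the 13000 it was 212 with no H3K79me1 base within 500 bp and 545 with 100% H3K79me2 cover. At −log10 p of at least 2 it was 3 of 95. With the 75276 strongest peaks in each of 7 lists it was 652 of 6198. The rule on the replicate 1 and replicate 2 lists alone gave 2834 of 24936 and 42187 of 73368. Leaving out 1 library at a time gave 1265 (of 14999) to 8569 (of 13000). The H3K79me1-lost share of H3K79me2-kept stretches became 13.4% at 50 bp, 6.46% at 200 bp, 1.97% within 500 bp, 11.1% with under 10% of a stretch allowed in H3K79me1, 9.24% and 7.63% with 50% and 100% H3K79me2 cover, 13.3% with equal peak numbers and 6.17% with peaks within 1 kb merged, and 9.76% to 79.5% with 1 library left out at a time. Its difference from the other stretches was -32.3 points at 50 bp, -25.0 at 200 bp, -11.9 within 500 bp, -22.5 and -16.8 with 50% and 100% H3K79me2 cover, -32.1 at −log10 p of at least 2, -20.9 with equal peak numbers and -33.5 after merging, and -36.3 to -10.5 with 1 library left out at a time. The flank difference in Cre replicate 1 was -21.6 points with no H3K79me1 base within 500 bp, a rule that itself empties the nearest bases, and -12.2 to -10.3 with each library other than Cre replicate 1 left out. The rank difference in the H3K79me1 controls, a mean of -4.62 points, ran from -9.11 to -2.99. The causes of these shifts were not tested. Read depth is unknown and limits all calls by an amount that cannot be given.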

Other observations

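The X chromosome was outside the rule, since H3K79me1 control replicate 1 lists 0 peaks there. With control replicate 2 as the only H3K79me1 control, chosen after seeing the data, 48 stretches of X were covered in it and in both H3K79me2 controls. Of these 9 (18.8%, exact binomial 95% interval 8.95 to 32.6%) had no H3K79me1 base in either Cre list and an H3K79me2 base in each. On the autosomes the same rule gave 1963 of 18248 stretches (10.8%, 10.3 to 11.2%). The 2 intervals overlap.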
